A study of Mus musculus with 30 samples.

Results

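The comparison is between the spleens of asymptomatic Tg26 mice and those of FVB/N mice, measured on Affymetrix Mouse Gene 1.0 ST arrays. Tg26 mice carry an HIV-1 provirus, pNL4-3 with part of gag-pol removed, so that they express viral genes without producing infectious virus; they were heterozygous and on the FVB/N background. The controls were non-transgenic FVB/N mice, and all animals were 5 to 12 months old when killed. The 9 arrays were those labelled as spleen without tumour (6 mice, numbered 1 to 6) and as spleen of the control strain (3 mice, numbered 1 to 3), out of 30 arrays from 15 mice. The other arrays held the lymph nodes of these mice and the spleens and nodes of 6 Tg26 mice with lymphoma, a disease that arises in about 15% of the line. Asymptomatic mice 1 to 3 and all FVB/N mice were labelled batch A, and asymptomatic mice 4 to 6 batch B. For that reason the difference in batch A alone, 3 mice against 3, is given beside that from the model of all 30 arrays for the genes described at length. The colony was bred from heterozygotes with skin lesions, and a spleen array mixes every cell type of the organ, so that more cells of a type and more RNA per cell cannot be told apart. No probe set for the provirus was used, so the genotype labels were not checked against the transgene.

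The spleen filters blood and houses B and T lymphocytes. In its red pulp, macrophages take up aged erythrocytes, break down haem with haem oxygenase and return iron to the blood through ferroportin; they depend on the transcription factor Spi-C and on signalling through the CSF-1 receptor. Immediate early genes such as Fos, Jun and Atf3 are transcribed within minutes of a stimulus or of handling of the tissue. Heat shock chaperones are induced by heat shock factor when proteins misfold. Interferon-induced genes respond to viral and other nucleic acids.

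Each array gave a log2 level for 19938 genes, and the array medians lay between 6.67 and 6.89. All 9 arrays had the transcripts that define spleen lymphocytes: the B cell marker Ms4a1 lay between 11.93 and 12.23 in asymptomatic Tg26 spleens and between 11.97 and 12.11 in FVB/N spleens, and the T cell marker Cd3e at 10.92, 11.33 and 11.59 (lowest, median and highest) against 11.31, 11.50 and 11.51. FVB/N mouse 1 stood apart from FVB/N mice 2 and 3. Over all genes its array correlated with theirs at r = 0.9891, whereas theirs correlated with each other at 0.9967, and it correlated with the batch A asymptomatic arrays at 0.9908 to 0.9921. Its mean level of immediate early and stress genes was 9.97, against 10.73 and 10.78 in the other FVB/N spleens and 8.73 to 9.82 in the asymptomatic ones. Its neutrophil granule genes averaged 8.77, against 7.57 and 7.63, and its erythroid genes 8.77, against 7.63 and 7.62. Asymptomatic mice 4 and 5 carried transcripts of exocrine pancreas, a neighbouring organ: the pancreas list averaged 7.30 and 8.34 in their spleens, 6.34 in that of mouse 6, and 6.06 to 6.11 in the 6 spleens of batch A. The batch A asymptomatic spleens were close to one another, with a median gene SD of 0.092, against 0.143 in the batch B asymptomatic spleens and 0.108 in the FVB/N spleens.

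**Figure D1:**
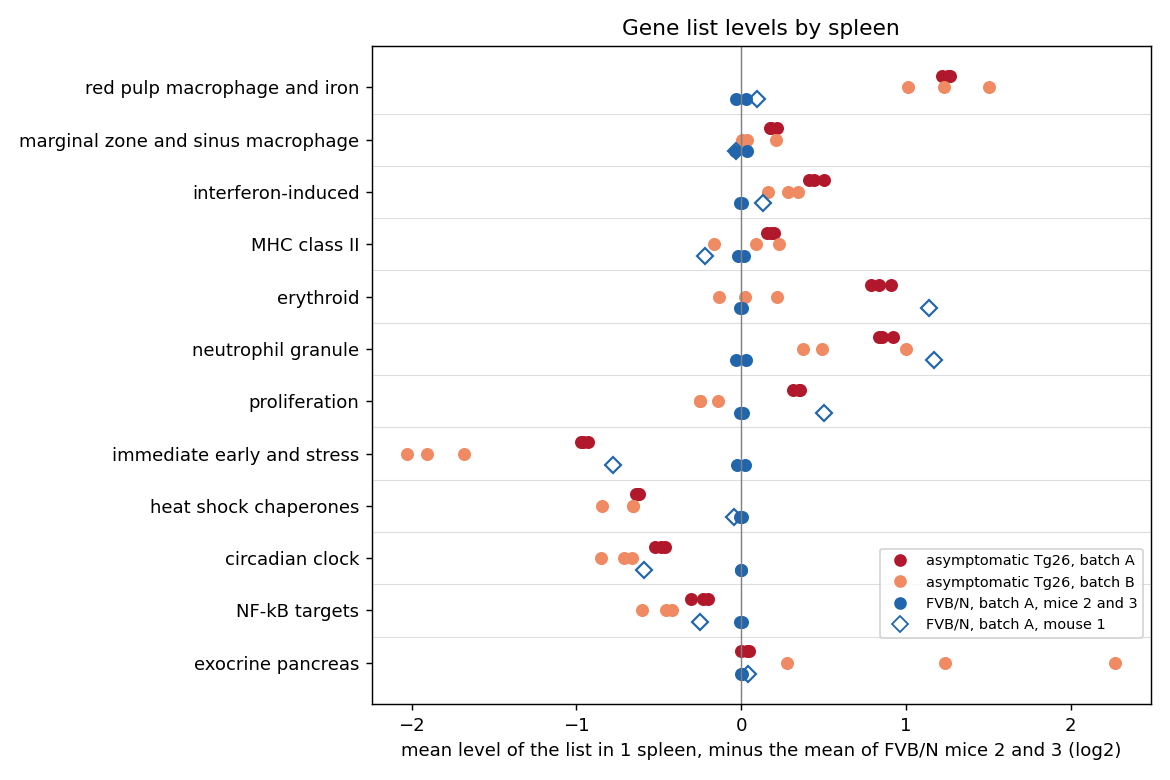
Mean log2 level of each gene list in each spleen, as the distance from the mean of FVB/N mice 2 and 3 (horizontal axis, log2); red points are asymptomatic Tg26 batch A, orange points asymptomatic Tg26 batch B, blue points FVB/N mice 2 and 3 and the open diamond FVB/N mouse 1. The macrophage list lay above all FVB/N spleens in all 6 asymptomatic spleens and the chaperone list below them, while for immediate early, clock, erythroid and neutrophil genes FVB/N mouse 1 lay on the side of the asymptomatic spleens of batch A.

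In the model of all 30 arrays (limma with 6 surrogate variables, adjusted p under 0.05 by the Benjamini-Hochberg method), 123 genes differed in asymptomatic Tg26 spleens, 0.617% of those tested. Of these, 61 were higher (0.306%) and 62 lower (0.311%), and 26 and 33 of them differed by at least 1 on the log2 scale. All 123 had the same sign in batch A alone. The batch A arrays are also part of the model, so this agreement was favoured in advance. Within batch A, where no batch difference enters, 439 genes passed (2.2%), 342 higher (1.72%) and 97 lower (0.487%). Past both fits, which share these arrays, were 79 genes (0.396%), 59 higher (0.296%) and 20 lower (0.1%). For 796 genes (3.99%) all 6 asymptomatic spleens lay above all 3 FVB/N spleens, and for 806 (4.04%) all lay below. The groups separated in this way for 46 of the 61 higher and 45 of the 62 lower genes. For 38 of the 62 lower genes, FVB/N mouse 1 lay less than 50% as far above the batch A asymptomatic mean as FVB/N mice 2 and 3 did, and this was so for 4 of the 61 higher genes. Without FVB/N mouse 1, 252 genes passed, 64 higher and 188 lower, among them 37 of the 61 and 57 of the 62. Without FVB/N mouse 2 or 3, 17 and 14 genes passed; leaving out asymptomatic mouse 1, 2 or 3 left 47, 54 and 52, and leaving out asymptomatic mice 4 and 5 together left 74.

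Red pulp macrophage and iron genes were higher in asymptomatic Tg26 spleens. Of 21 measured genes of this list, 7 rose in the model and none fell; 17 rose within batch A, and for 17 all 6 asymptomatic spleens lay above all 3 FVB/N spleens. The median difference of the list was 1.23 in the model, 1.24 in batch A and 1.34 over the 9 arrays as measured, beside 0.02, 0.02 and -0.03 over all genes. Among all genes tested, 0.306% rose in the model, 1.72% rose in batch A and 3.99% separated upwards. The 7 were Vcam1, Hmox1, Mrc1, Mertk, C1qa, C1qb and C1qc.

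Vcam1, an adhesion molecule that marks red pulp macrophages and stroma, was at 9.32, 9.77 and 9.96 (lowest, median and highest of 6) in asymptomatic Tg26 spleens and at 7.46, 7.33 and 7.10 in FVB/N spleens 1 to 3. The groups did not overlap, and the fitted difference was 2.61 ± 0.57 (SE, adjusted p = 0.0359). Hmox1, the inducible haem oxygenase, was at 10.09, 10.38 and 10.54 in asymptomatic spleens and at 8.66, 8.09 and 8.25 in FVB/N spleens, a fitted difference of 2.05 ± 0.35 (SE, adjusted p = 0.00675). Every asymptomatic spleen exceeded every FVB/N spleen by more than 1 log2 unit. Mrc1, the macrophage mannose receptor, had levels of 8.12, 8.39 and 8.83 in asymptomatic spleens, against 5.98, 6.14 and 6.15 in FVB/N spleens, and rose by 2.09 ± 0.41 (SE, adjusted p = 0.0157). Mertk, a receptor for the uptake of dying cells, was at 7.15, 7.80 and 7.93 in asymptomatic spleens and 6.11, 5.87 and 5.92 in FVB/N spleens, with a fitted difference of 1.79 ± 0.40 (SE, adjusted p = 0.0359). Neither gene had an overlap between the groups. In batch A alone the differences of Vcam1, Hmox1, Mrc1 and Mertk were 2.59, 2.02, 2.29 and 1.88 (limma adjusted p at most 0.000105).

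C1qa, C1qb and C1qc encode the chains of complement C1q, which spleen macrophages and dendritic cells make, and are adjacent among the measured genes of their chromosome. C1qc was at 8.45, 8.74 and 8.98 in asymptomatic spleens and at 6.71, 6.94 and 6.74 in FVB/N spleens, with a fitted difference of 1.94 ± 0.37 (SE, adjusted p = 0.0138). C1qb reached 8.56, 8.98 and 9.32 in asymptomatic spleens, against 7.54, 7.60 and 7.65 in FVB/N spleens, and C1qa 8.79, 8.97 and 9.82 against 7.39, 7.64 and 7.73; their fitted differences were 1.502 and 1.25 (adjusted p = 0.0188 and 0.0359). All 3 genes were higher in every asymptomatic spleen than in any FVB/N spleen, and the batch A differences of C1qc, C1qb and C1qa were 1.96, 1.54 and 1.26 (limma adjusted p at most 0.000287).

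Further members passed in batch A only. Axl, a receptor related to Mertk, was at 8.32, 8.45 and 9.01 in asymptomatic spleens and 7.07, 7.01 and 6.91 in FVB/N spleens, with a fitted difference of 1.51 ± 0.36 (SE, adjusted p = 0.056) and a batch A difference of 1.42 (adjusted p = 6.38e-05). Slc40a1, which encodes ferroportin, was at 9.46, 9.90 and 10.21 in asymptomatic spleens, against 8.26, 7.23 and 7.26 in FVB/N spleens, and Spic, the lineage's transcription factor, at 8.90, 9.10 and 9.44 against 7.53, 7.77 and 7.93. Their batch A differences were 2.30 and 1.24 (adjusted p = 0.00137 and 0.000496), and their fitted differences 2.00 and 1.12 (adjusted p = 0.195 and 0.273). Csf1r, Trf, Hpgd, Cd163, Treml4, Cd5l and Adgre1 also lay higher in all 6 asymptomatic spleens and passed in batch A, with batch A differences between 0.54 (Adgre1, a surface antigen of mouse macrophages) and 1.39 (Hpgd). The remaining genes did not pass. Cd68, a lysosomal protein of macrophages, differed by 0.30 in batch A (adjusted p = 0.113), and Gpnmb and the Kupffer cell genes Vsig4 and Clec4f by -0.14, -0.18 and -0.17, with overlapping groups.

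**Figure D2:**
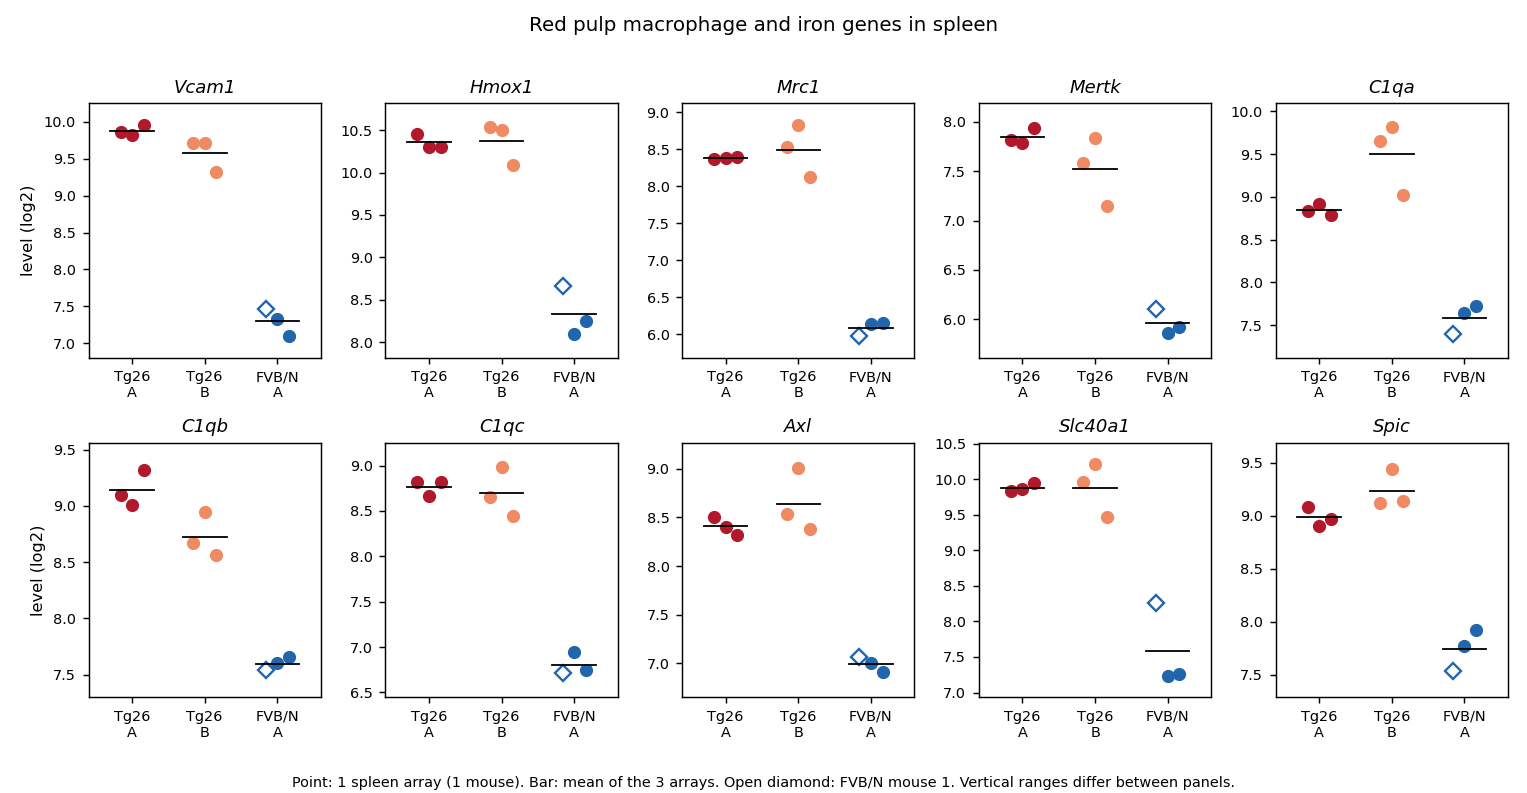
Log2 level of 10 red pulp macrophage and iron genes in each spleen (1 point a mouse; bars are means of 3 arrays; the open diamond is FVB/N mouse 1). In each panel the asymptomatic Tg26 spleens of both batches lie above the 3 FVB/N spleens, with Vcam1 at 9.32 or more in the asymptomatic spleens and at 7.46 or less in the FVB/N spleens.

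The mean level of the macrophage list was 8.09 to 8.58 in asymptomatic spleens and 7.04 to 7.17 in FVB/N spleens, with FVB/N mouse 1 at 7.17. The number of list genes passing in the model was 5 without FVB/N mouse 1, 1 without FVB/N mouse 2, 0 without FVB/N mouse 3 (14 of the 21 at an unadjusted limma p under 0.05), 3 without asymptomatic mouse 3 and 2 without asymptomatic mice 4 and 5, and 4 with the mouse number as a block, under which Vcam1, Mertk and C1qa missed the threshold (adjusted p = 0.0595, 0.0696 and 0.068). The median difference of the list was between 1.11 and 1.22 in the fits without an FVB/N mouse, without asymptomatic mice 4 and 5 and with the block. Within batch A, 17 passed with and without the block. In the spleens with lymphoma the list mean ran between 6.804 and 8.83, and Vcam1 between 6.79 and 10.67.

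In batch A, where 1.72% of all genes rose, lists of other macrophages, monocytes and stroma also had members that rose. Of 10 measured genes of marginal zone and sinus macrophages none passed in the model (1 at an unadjusted limma p under 0.05) and 2 rose in batch A: Nr1h3, which encodes the sterol receptor LXR alpha, by 0.77 and Timd4, a receptor for phosphatidylserine, by 0.55. Among 19 monocyte and inflammatory genes, Fcgr4, Fcgr1, Fcgr3 and Ccr2 rose in batch A by 0.50 to 0.66. In the model, where 0.311% of all genes fell, the list had 1 call, a lower Il6, the gene of the cytokine interleukin 6. Il6 was at 3.62, 3.92 and 4.17 in asymptomatic spleens and 3.97, 5.60 and 5.55 in FVB/N spleens, with an adjusted p of 0.0499 in the model, 0.132 with the mouse number as a block and 0.197 in batch A. The 18 neutrophil granule genes had no call in either fit (3 at an unadjusted limma p under 0.05 in the model), with a median difference of 0.47 in the model, and without FVB/N mouse 1 they had 1 call and a median of 0.83. Of 28 stroma genes, 4 rose in batch A, Postn by 1.46, Col14a1 by 0.65, Cxcl13 by 1.08 and Sparc by 0.46, and none passed in the model (3 at an unadjusted limma p under 0.05). Cxcl13, the chemokine that draws B cells to follicles, was at 6.82, 7.56 and 8.27 in asymptomatic spleens and 5.99, 5.52 and 6.32 in FVB/N spleens, so that the groups did not overlap.

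Igf1, insulin-like growth factor 1, which tissue macrophages can make, was at 7.89, 8.13 and 8.23 in asymptomatic spleens and at 6.39, 6.35 and 6.33 in FVB/N spleens. It rose by 1.63 ± 0.33 (SE, adjusted p = 0.0221), and its adjusted p was 0.0607 with the mouse number as a block. Ccr3, the eotaxin receptor, rose by 1.95 ± 0.43 (SE, adjusted p = 0.0359), with levels of 7.59, 7.87 and 8.27 in asymptomatic spleens against 5.85, 6.11 and 6.05 in FVB/N spleens; without FVB/N mouse 1 its adjusted p was 0.095. Il5ra, the interleukin 5 receptor of eosinophils, was higher by 1.16 in batch A (adjusted p = 0.00137), where 1.72% of all genes rose. The other 13 measured mast cell, basophil and eosinophil genes did not pass in either fit. Clec1b, the platelet receptor CLEC-2, was at 6.48, 6.78 and 7.05 in asymptomatic spleens and 5.28, 5.11 and 5.00 in FVB/N spleens and rose by 1.44 ± 0.27 (SE, adjusted p = 0.0125). It was the only call among 11 megakaryocyte and platelet genes in the model, where 0.306% of all genes rose. In batch A, Igf1, Ccr3 and Clec1b were higher by 1.80, 1.89 and 1.42 (limma adjusted p at most 8.63e-05).

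The haem gene Alas2, which encodes the first enzyme of haem synthesis in erythroblasts, rose by 2.26 ± 0.50 (SE, adjusted p = 0.0359) and, in batch A, by 2.16 (adjusted p = 0.0105). Its levels were 10.92, 10.83 and 10.87 in asymptomatic mice 1 to 3, 10.27, 9.49 and 10.13 in asymptomatic mice 4 to 6, and 9.65, 8.22 and 8.27 in FVB/N mice 1 to 3. FVB/N mouse 1 lay within the asymptomatic range and the groups overlapped. Alas2 passed in 11 of 24 alternative settings. Without FVB/N mouse 2 or 3 its limma adjusted p was 0.262 and 0.518, and with no covariate over 30 arrays 0.899. With batch as a term over 30 arrays it did not pass either. Of 22 erythroid genes, Alas2 alone passed in the model (0.306% of all genes rose) and Alas2, Tspo2 and Fech in batch A (1.72%); for no gene of the list did all 6 asymptomatic spleens lie above all FVB/N spleens. The list averaged 8.54, 8.42 and 8.46 in asymptomatic mice 1 to 3 and 7.85, 7.49 and 7.65 in mice 4 to 6, so the batches of asymptomatic mice also differed from each other.

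Among 28 measured interferon-induced genes, 1 rose in the model and 9 in batch A, beside 0.306% and 1.72% of all genes; none fell. The median difference was 0.35 in the model and 0.30 in batch A. Rsad2, which encodes the antiviral enzyme viperin, was at 9.70, 9.59 and 9.70 in asymptomatic mice 1 to 3, 8.77, 8.72 and 9.13 in asymptomatic mice 4 to 6 and 8.37, 7.26 and 7.23 in FVB/N mice 1 to 3. All asymptomatic spleens exceeded all FVB/N spleens, and the fitted difference was 1.92 ± 0.42 (SE, adjusted p = 0.0359). In batch A, Cxcl9, Oasl2, Ifit3, Mx1, Rtp4, Usp18, Ifit2 and Ifit1 also rose, by 0.42 (Ifit2) to 0.87 (Cxcl9, a chemokine induced by interferon gamma), and 20 of the 28 had all 3 asymptomatic spleens above all 3 FVB/N spleens, as did 12.9% of all genes. Other central members did not: Irf7, the factor that amplifies interferon, differed by 0.24 in batch A (adjusted p = 0.216), Bst2 (tetherin) by -0.03 and Cxcl10 by -0.05. Across the whole list 9 of 28 genes had all 6 asymptomatic spleens above all FVB/N spleens, as did 3.99% of all genes. With batch A alone, Rsad2 rose by 2.04 (adjusted p = 0.00462); without FVB/N mouse 1 the fitted difference was 2.13 (adjusted p = 0.0199). Rsad2 passed in 13 of 24 alternative settings. Without FVB/N mouse 2 or 3 it did not pass (adjusted p = 0.262 and 0.403), nor without asymptomatic mouse 1, 2, 3 or 4. It also did not pass after quantile normalization or with the filter on dim genes. With batch as a term or no covariate over 30 arrays its limma adjusted p was 0.936 and 0.738. With batch as a term over the 15 spleen arrays it was 0.0862.

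Heat shock chaperones were lower in asymptomatic Tg26 spleens, and here FVB/N mouse 1 lay with its group. The list of 19 measured chaperones and cochaperones was drawn up after the values of Hsph1 and Dnajb1 had been seen, so its counts are a description. In the model 5 fell (Hsph1, Dnajb1, Dnajb4, Chordc1 and Ahsa2) and in batch A 9 fell; 14 of 19 were lower in all 6 asymptomatic spleens than in any FVB/N spleen, and none rose. The shares over all genes were 0.311%, 0.487% and 4.04%. The median difference was -0.50 in the model and -0.42 in batch A.

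Hsph1, a large chaperone of the HSP110 family, was at 8.23, 8.29 and 8.92 in asymptomatic spleens and 9.79, 9.65 and 9.62 in FVB/N spleens. It fell, with a fitted difference of -1.46 ± 0.20 (SE, adjusted p = 0.000417), and with -1.39 without FVB/N mouse 1. Dnajb1, the HSP40 partner of HSP70, was at 7.97, 8.05 and 8.49 against 9.07, 9.17 and 9.51, a fitted difference of -1.09 ± 0.21 (SE, adjusted p = 0.0157). Chordc1, a cochaperone of HSP90, was at 9.13, 9.27 and 9.42 in asymptomatic spleens, against 9.96, 9.90 and 9.95 in FVB/N spleens, and Ahsa2, which is related to an activator of HSP90, was at 7.52, 7.80 and 7.92 against 8.54, 8.36 and 8.24. They fell by 0.77 and 0.61 on the log2 scale (adjusted p = 0.0106 and 0.008). Hspa1a, an inducible HSP70, was at 7.37, 7.61 and 7.75 in asymptomatic spleens and 9.17, 10.06 and 10.16 in FVB/N spleens; it fell by 2.08 in batch A (adjusted p = 0.00165), while the fitted difference of -1.73 had an adjusted p of 0.145. Hspb1, Hsp90aa1 and Dnaja1 fell in batch A by 0.47, 0.43 and 0.39. The batch A differences of Hsph1, Dnajb1, Chordc1 and Ahsa2 were -1.44, -1.22, -0.68 and -0.55 (adjusted p at most 0.0237), and that of Dnajb4, which did not pass there, -1.04 (adjusted p = 0.12). The mitochondrial chaperones Hspd1 and Hspe1 differed by -0.32 and -0.23 in batch A, did not pass, and overlapped between the groups.

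Heat shock factor binds inverted repeats of GAA. The following stretches, from RefSeq's GRCm38.p6 annotation, are shown because Chordc1 and Hsph1 are among the genes that fell and hold the motif GAANNTTCNNGAA (searched on both strands; matches in capitals) around the annotated start.
Chordc1, bases -40 to 25 from the start, chr9:18292227-18292291, plus strand: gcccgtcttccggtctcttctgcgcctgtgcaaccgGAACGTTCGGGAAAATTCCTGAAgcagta
Hsph1, bases 26 to 50 from the start, chr5:149636287-149636311, minus strand: aatgctgcagaTTCTGGAAAGTTCt
In Chordc1, 3 overlapping matches began at bases -4, 2 and 7 from the start. The motif stood in 198 of 32851 promoter windows (0.603%; RefSeq windows around each annotated start), in 0.564% of the 15614 measured genes with a window, and in 4 of the 17 measured chaperone genes that had one. The others were Hspd1 and Hspe1, which did not pass; their windows overlap and hold the same sites read on opposite strands.

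The immediate early and stress list had 24 measured genes, of which 5 fell in the model (Junb, Atf3, Klf6, Dnajb1 and Hsph1), 5 fell in batch A, all of them chaperones (Hsph1, Dnajb1, Hspa1a, Hspb1 and Hsp90aa1), and none rose; of all genes, 0.311% fell in the model and 0.487% in batch A. The mean level of the list was 9.82, 9.78 and 9.79 in batch A asymptomatic spleens and 8.73, 8.84 and 9.07 in batch B asymptomatic spleens, so that FVB/N mouse 1 lay near the batch A asymptomatic spleens. Atf3 was at 8.30, 8.24 and 8.19 in asymptomatic mice 1 to 3, 7.02, 7.32 and 7.38 in asymptomatic mice 4 to 6 and 8.81, 11.08 and 11.01 in FVB/N mice 1 to 3. It fell by 1.995 in the model (adjusted p = 0.0169) and differed by -2.05 in batch A (adjusted p = 0.0851). For Fos the values were 11.45, 11.52 and 11.55, 9.30, 9.47 and 9.86 and 11.40, 11.89 and 11.96 in the same order; the fitted difference was -0.52 (adjusted p = 0.934) and FVB/N mouse 1 lay below all 3 asymptomatic spleens of its batch. Nr4a1, an orphan nuclear receptor induced by receptor signalling, was at 9.65, 9.58 and 9.54, then 8.13, 8.74 and 8.78, and 9.73, 11.50 and 11.52 in FVB/N mice, with a fitted difference of -1.21 (adjusted p = 0.319). The model called 11 members lower without FVB/N mouse 1, 1 without FVB/N mouse 2, 1 without FVB/N mouse 3, 1 when asymptomatic mouse 1, 2 or 3 was left out, and 2 without asymptomatic mice 4 and 5.

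**Figure D3:**
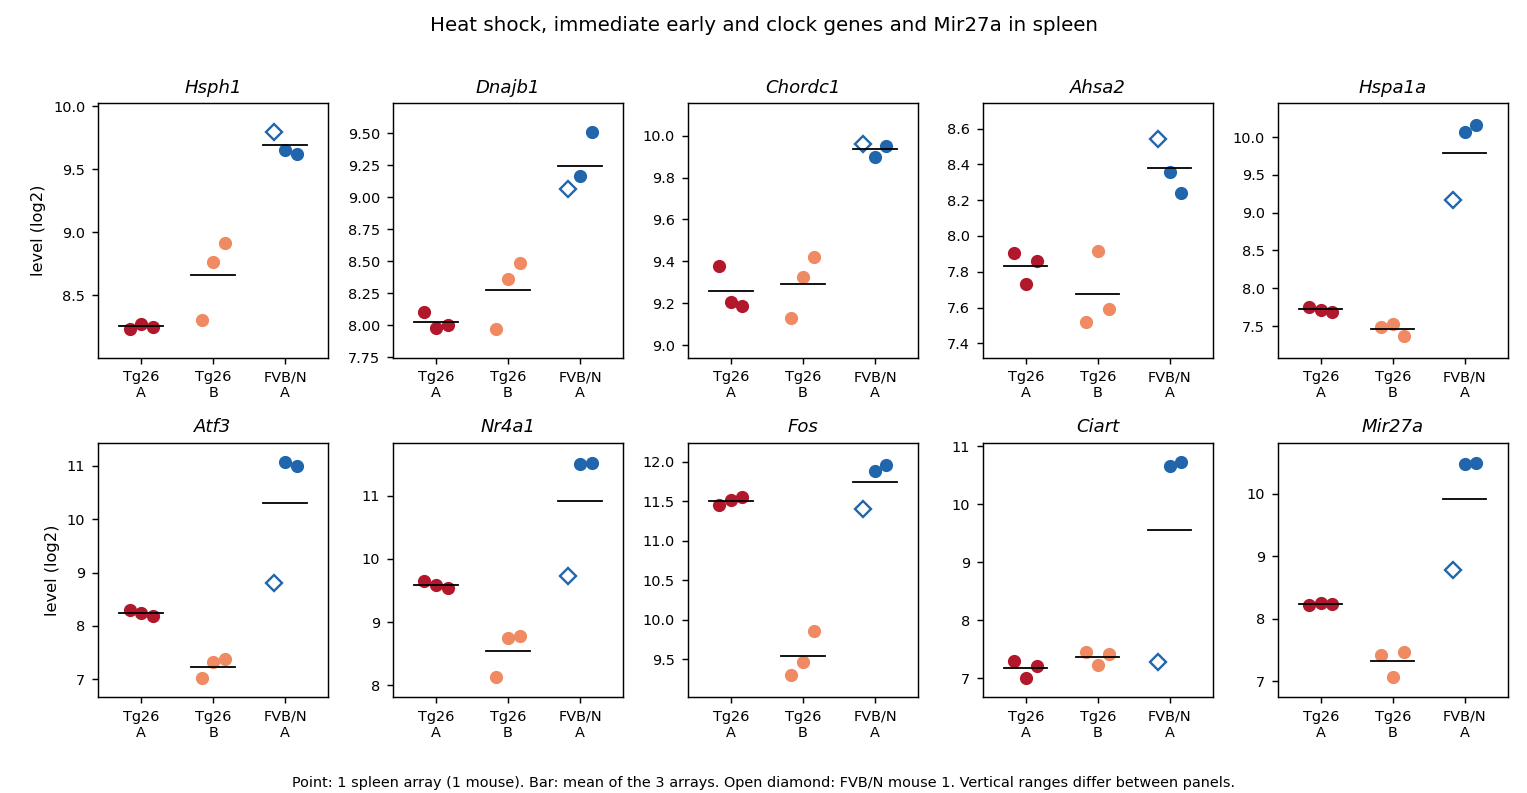
Log2 level in each spleen of 5 chaperone genes (upper row) and of Atf3, Nr4a1, Fos, Ciart and Mir27a (lower row); 1 point a mouse, bars are means of 3 arrays, and the open diamond is FVB/N mouse 1. In the upper row FVB/N mouse 1 lies nearer to FVB/N mice 2 and 3 than to the asymptomatic spleens (Hsph1 at 9.79, 9.65 and 9.62 in FVB/N mice 1 to 3), and in the lower row it lies nearer to the batch A asymptomatic spleens (Ciart at 7.28, 10.67 and 10.73 in FVB/N mice 1 to 3).

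Several other genes that fell were also lower in FVB/N mouse 1 than in FVB/N mice 2 and 3. Gla, which encodes the lysosomal alpha-galactosidase, was at 7.95, 8.18 and 8.13 in asymptomatic mice 1 to 3, 7.31, 7.34 and 7.33 in asymptomatic mice 4 to 6, and 8.27, 10.38 and 10.35 in FVB/N mice. Its fitted difference was -1.65 ± 0.31 (SE, adjusted p = 0.0128) and its batch A difference -1.58. Gch1 (GTP cyclohydrolase, the first enzyme of tetrahydrobiopterin synthesis), the small Maf factors Maff and Mafk, the nuclear receptor Nr4a3, the zinc finger gene Zbtb10 and the lncRNA Gdap10 fell by 1.202 (Mafk) to 1.75 (Gdap10). In FVB/N mouse 1 they lay at 7.72, 7.01, 8.48, 7.10, 8.42 and 8.03, against 9.22, 8.36, 10.002, 8.78, 10.03 and 10.13 in FVB/N mouse 2. None of these 7 genes passed in batch A, where FVB/N mouse 1 is 1 of 3 controls (adjusted p between 0.0975 and 0.167); with the mouse number as a block Nr4a3 had an adjusted p of 0.0667. Tnfaip3, the deubiquitinase A20 that limits NF-kB, fell, with a fitted difference of -1.31 ± 0.23 (SE, adjusted p = 0.00876) and levels of 8.29, 8.89 and 9.53 in asymptomatic spleens and 9.78, 10.96 and 11.09 in FVB/N spleens. It was the only call among 22 NF-kB targets in the model, where 0.311% of all genes fell. In batch A it differed by -1.29 (adjusted p = 0.0709). Nfkbiz and Cxcr4, outside the rule for named genes and chosen after their values were seen, passed in both fits. Cxcr4, the receptor for CXCL12, was at 10.22, 10.47 and 10.74 against 11.44, 11.76 and 11.71 (fitted difference -0.97 ± 0.17 (SE, adjusted p = 0.0097)). Nfkbiz, which encodes IkB-zeta, a protein related to the NF-kB inhibitors, was at 7.80, 8.39 and 8.85 against 9.22, 9.79 and 9.78 (fitted difference -0.82 ± 0.14 (SE, adjusted p = 0.00534)). All 6 asymptomatic spleens lay below all 3 FVB/N spleens for Tnfaip3, Nfkbiz and Cxcr4. Cxcr4 and Nfkbiz differed by -0.94 and -0.78 in batch A (adjusted p = 0.00143 and 0.0294).

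Of 291 measured miRNA genes, 9 fell and none rose in the model, beside 0.311% and 0.306% of all genes. Among them were Mir23a, Mir27a and Mir24-2, neighbours in a single cluster, which were noticed after their values were seen. The arrays detect transcripts overlapping the locus, not the mature miRNA. Their mature sequences, as RefSeq gives them on GRCm38.p6, share no seed (bases 2 to 8, in capitals).
mmu-miR-23a-3p, chr8:84208563-84208583, plus strand: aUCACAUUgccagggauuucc
mmu-miR-27a-3p, chr8:84208727-84208747, plus strand: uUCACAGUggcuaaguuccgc
mmu-miR-24-3p, chr8:84208875-84208896, plus strand: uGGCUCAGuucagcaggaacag
Mir27a was at 8.21, 8.26 and 8.24 in asymptomatic mice 1 to 3, 7.42, 7.07 and 7.46 in asymptomatic mice 4 to 6 and 8.77, 10.47 and 10.49 in FVB/N mice, with a fitted difference of -2.02 ± 0.38 (SE, adjusted p = 0.0144). Mir23a and Mir24-2 fell by 1.37 and 0.97 (adjusted p = 0.0207 and 0.0359, the second 0.0782 with the mouse number as a block). For all 3 the asymptomatic spleens lay below all FVB/N spleens, FVB/N mouse 1 was nearest to them, and none passed in batch A, where Mir27a, Mir23a and Mir24-2 differed by -1.67, -1.17 and -0.93 (adjusted p between 0.0709 and 0.15). Mir155, whose host transcript is induced in activated lymphocytes, fell by 1.13 (adjusted p = 0.0221).

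Of 19 measured clock genes, 2 fell in the model and none passed in batch A; of all genes, 0.311% fell in the model and 0.487% in batch A. Ciart, a repressor of the clock activators, was at 7.29, 7.01 and 7.22 in asymptomatic mice 1 to 3, 7.45, 7.22 and 7.42 in asymptomatic mice 4 to 6, and 7.28, 10.67 and 10.73 in FVB/N mice 1 to 3. FVB/N mouse 1 had the asymptomatic level and the other FVB/N mice were more than 3 log2 units higher; the fitted difference was -2.29 ± 0.47 (SE, adjusted p = 0.0221), and the adjusted p was 0.0623 with the mouse number as a block. Per1, a period gene that also responds to stimuli, was at 8.19, 8.96 and 9.46 in asymptomatic spleens and 9.40, 10.88 and 10.92 in FVB/N spleens, with a fitted difference of -1.02 ± 0.23 (SE, adjusted p = 0.0366) and an adjusted p of 0.134 with the block. In batch A, Ciart and Per1 differed by -2.38 and -0.97 (adjusted p = 0.18 and 0.219). The clock output gene Dbp, the period gene Per2 and Nr1d1 differed by -0.10, -0.06 and -0.32 (adjusted p = 0.993, 0.993 and 0.871). Clock activators bind the E-box CACGTG, and the stretch upstream of Ciart is shown because it holds 3 of them (capitals), the first beginning at base -116.
Ciart, bases -125 to -30 from the start, chr3:95882258-95882353, minus strand, GRCm38.p6: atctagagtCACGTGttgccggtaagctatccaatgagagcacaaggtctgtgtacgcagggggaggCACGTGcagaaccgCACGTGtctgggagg
CACGTG, which reads the same on both strands, stood in 7.15% of the 32851 promoter windows, in 9.5% of the 15614 measured genes with a window, and in 5 of the 16 measured clock genes with a window (Bhlhe41, Ciart, Cry1, Per1 and Tef), of which Ciart and Per1 fell.

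Other large differences lay in genes outside these lists. Jam2, a junctional adhesion molecule of endothelium and stroma, was at 8.19, 8.58 and 8.75 in asymptomatic spleens and 5.46, 5.66 and 5.77 in FVB/N spleens. It rose by 2.88 ± 0.28 (SE, adjusted p = 1.4e-05) and passed under all 24 alternative settings. D17H6S56E-5, outside the naming rule and chosen after its values were seen, was at 9.61, 9.56 and 9.52 in asymptomatic mice 1 to 3, at 9.90, 6.93 and 10.15 in asymptomatic mice 4 to 6, and at 6.33, 6.31 and 6.08 in FVB/N mice. Asymptomatic mouse 5 had nearly the FVB/N level, and the gene's adjusted p was 0.0359, or 0.0679 without FVB/N mouse 1. Lipo3, a lipase family gene with near copies in its cluster, was at 6.90, 7.36 and 7.81 in asymptomatic spleens, against 5.32, 5.84 and 6.05 in FVB/N spleens, and rose by 1.85 ± 0.25 (SE, adjusted p = 0.000417). Hcrtr2, the second orexin receptor, was at 5.55, 6.28 and 6.51 and 4.78, 4.61 and 4.87, a fitted difference of 1.498 ± 0.17 (SE, adjusted p = 9.53e-05). Kcnj10, an inwardly rectifying potassium channel, was at 7.90, 7.64 and 7.64 in asymptomatic mice 1 to 3 and 6.91, 7.31 and 6.40 in asymptomatic mice 4 to 6, against 6.47, 6.24 and 6.41 in FVB/N mice; its adjusted p was 0.0499, and 0.0633 with the mouse number as a block. Mouse 6 overlapped the FVB/N range. In batch A, Jam2, D17H6S56E-5, Lipo3, Hcrtr2 and Kcnj10 were higher by 3.03, 3.32, 1.95, 1.60 and 1.35 (limma adjusted p at most 0.000476).

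Klrb1b, an inhibitory C-type lectin receptor, was at 4.97, 5.23 and 5.31 in asymptomatic spleens and 6.86, 6.85 and 6.89 in FVB/N spleens, and fell by 1.73 (SE 0.19, adjusted p = 6.52e-05). The neighbouring Ly49 genes Klra8 and Klra3, chosen after their values were seen, differed in sign: Klra8 was at 4.08, 4.22 and 4.39 in asymptomatic spleens and 4.95, 5.66 and 5.58 in FVB/N spleens (fitted difference -1.200, adjusted p = 0.00129), and Klra3 at 6.84, 7.07 and 7.78 against 5.51, 6.10 and 5.95 (fitted difference 0.98, adjusted p = 0.0076). Neither overlapped between groups. In batch A the differences of Klrb1b, Klra8 and Klra3 were -1.75, -1.22 and 1.00 (limma adjusted p at most 0.00718). Ly49 genes are near copies of each other, so that probes can bind several of them and the assignment to a gene is uncertain. Of 20 measured cytotoxic and natural killer genes, only Xcl1, the lymphotactin gene, passed in the model, where 0.311% of all genes fell. Xcl1 was at 7.66, 7.79 and 8.03 against 7.66, 8.73 and 8.82, and FVB/N mouse 1 lay at the asymptomatic level. With the mouse number as a block its adjusted p was 0.0818.

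Ly6d, a surface protein of B cells and plasmacytoid dendritic cells, and its neighbour Lynx1, a related protein that binds nicotinic receptors, separated the batches. Ly6d was at 9.39, 9.59 and 9.57 in asymptomatic mice 1 to 3, 10.77, 11.32 and 11.03 in asymptomatic mice 4 to 6, and 10.96, 11.12 and 11.25 in FVB/N mice. Lynx1 was at 7.20, 7.31 and 7.42 in asymptomatic mice 1 to 3, 8.35, 9.19 and 8.66 in asymptomatic mice 4 to 6, and 8.77, 8.66 and 8.77 in FVB/N mice. For both, batch A asymptomatic spleens lay well below FVB/N and batch B asymptomatic spleens overlapped FVB/N. The fitted differences of -1.49 and -1.43 (adjusted p = 0.000962 and 0.000345) match the batch A differences of -1.59 and -1.43, and not the measured differences over 9 arrays of -0.83 and -0.71. Ms4a6c, a membrane protein gene of myeloid cells with near copies beside it, was at 9.22, 9.87 and 10.23 in asymptomatic spleens and 11.55, 11.88 and 11.79 in FVB/N spleens and fell by 1.61 (SE 0.32, adjusted p = 0.0169); its groups did not overlap, and its batch A difference was -1.57 (adjusted p = 8.63e-05).

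**Figure D4:**
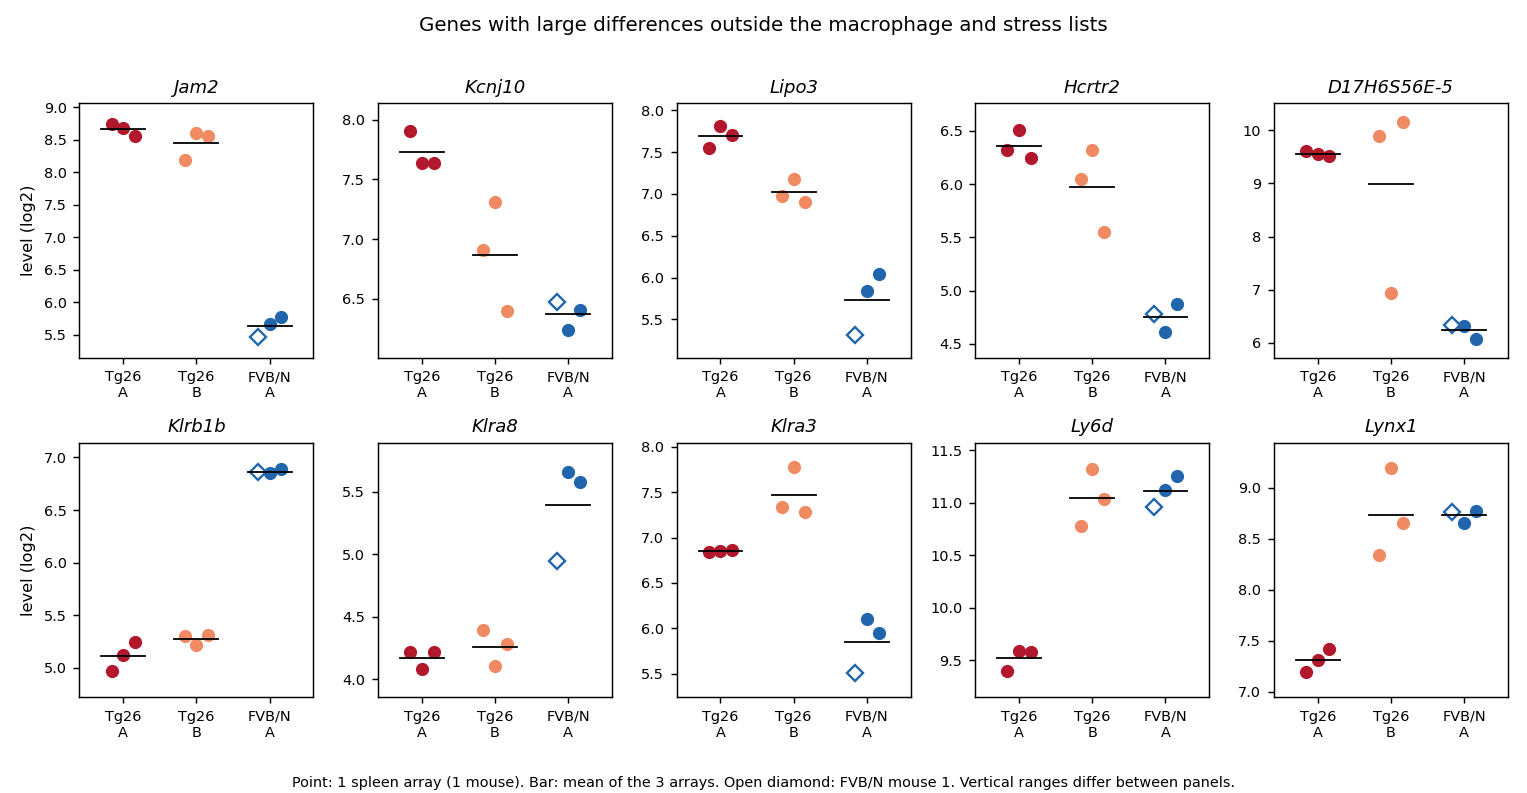
Log2 level in each spleen of 10 genes outside the macrophage and stress lists; 1 point a mouse, bars are means of 3 arrays, and the open diamond is FVB/N mouse 1. Jam2, Lipo3, Hcrtr2, Klrb1b, Klra8 and Klra3 separate the groups in both batches, asymptomatic mouse 5 is the low point of D17H6S56E-5 at 6.93, and Ly6d and Lynx1 are low in batch A only.

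Most lymphocyte lists had no member past the threshold. Of the 33 lists, 10 had a called member in the model and 23 had none, 12 of these none in batch A either. The 22 mature B cell genes had a median difference of -0.09 in the model with no call and 0 at an unadjusted limma p under 0.05. The 24 plasma cell genes, 16 marginal zone B cell genes and 37 proliferation genes had no call in either fit, with medians of 0.05, -0.02 and 0.08 (3, 1 and 1 at an unadjusted p under 0.05). In batch A, where 1.72% of all genes rose, T cell genes included 3 that rose, Cd8b1 by 0.57, Cd8a by 0.43 and Thy1 by 0.37, and MHC class II genes 3, H2-Aa by 0.89, H2-Eb1 by 0.92 and H2-Ea by 1.21; none of the 6 passed in the model (adjusted p between 0.0701 and 0.828). Of 20 dendritic cell genes, Ly6d fell in both fits and none rose in the model, while 4 rose in batch A, Itgae, Clec9a and Xcr1, markers of the cross-presenting subset, by 0.70, 0.97 and 0.76, and Fscn1, an actin bundling protein of mature dendritic cells, by 0.48. Of all genes, 0.311% fell in the model and 0.487% in batch A. Of 13 measured germinal centre genes none passed in the model (2 at an unadjusted limma p under 0.05) and 2 rose in batch A. The median difference of this list was 0.05 in the model and 0.07 in batch A, and 2 genes separated upwards, as did 3.99% of all genes. Rgs13, a regulator of G protein signalling in germinal centre B cells, rose by 1.32 in batch A and lay above all FVB/N spleens in all 6 asymptomatic spleens (6.30, 6.91 and 7.31 against 5.43, 5.66 and 6.19).

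The same mice gave lymph node arrays, which allow a test of whether the difference between asymptomatic Tg26 and FVB/N mice was itself different in the node. The model took the spleen and node of a mouse as separate arrays. With each mouse as a random block, 102 genes passed this test. The mouse number used as a block below is shared by mice of different groups and does not stand for the animal. Of 46 genes named here and examined in both tissues, 18 were higher in spleen and 28 lower. All 18 had a positive difference in the node too, 5 of them past the threshold there: Jam2 (1.74, adjusted p = 0.00526), Lipo3 (2.62), Hcrtr2 (0.87), Clec1b (1.56) and Klra3 (0.92). Of the 28 lower genes 11 had a negative difference in the node, 5 of them past the threshold, Hsph1 (-1.19, adjusted p = 0.00556), Chordc1 (-0.73), Ahsa2 (-0.70), Klrb1b (-0.95) and Ly6d (-1.21). The shares of all genes with each sign, or past the threshold, in the node are not given here. These counts therefore have no baseline and do not measure agreement between the tissues. The test of node minus spleen difference passed for 50 of all genes (0.251%), 45 of them with a higher difference in the node (0.226%), and for 9 of the 46: Atf3, Gla, Gch1, Tnfaip3, Maff, Junb, Klf6, Cxcr4 and Nfkbiz. All 9 were named as lower in spleen, and the test subtracts the same spleen values, which favours a positive result for them. For Atf3 the node difference was 0.96 and the spleen difference -1.995, which differed by 2.96 ± 0.55 (SE, adjusted p = 0.041). With the mouse number as a block 12 genes passed, 5 of the 9 among them, and the number was 226 without FVB/N mouse 1 and 0 without FVB/N mouse 2 or 3 (1312 and 1863 genes at an unadjusted limma p under 0.05). None of the 7 macrophage genes passed this test (adjusted p between 0.402 and 0.748), and in the node their differences were 0.72 (C1qa) to 1.33 (Mrc1), below the threshold.

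**Figure D5:**
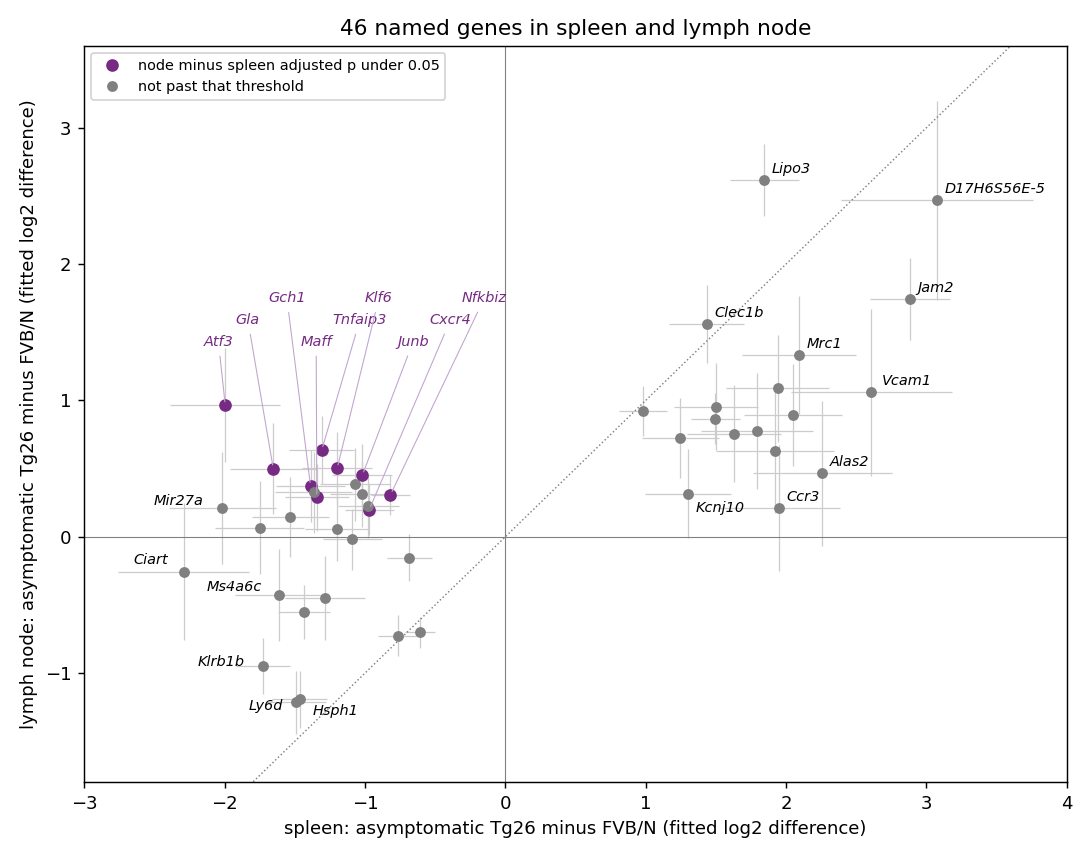
Fitted log2 difference between asymptomatic Tg26 and FVB/N mice in lymph node (vertical axis) and spleen (horizontal axis) for the 46 named genes; grey bars are standard errors, the dotted line marks equal differences, and purple points are the 9 genes with an adjusted p under 0.05 for node minus spleen. Genes higher in spleen lie above 0 in the node as well, and 17 of the 28 genes lower in spleen lie above 0 in the node. The genes were named by their spleen values, and no share over all genes is given. These counts therefore do not measure agreement between the tissues.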

How the data were processed

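RNA from 1 spleen per mouse was hybridised to 1 Affymetrix Mouse Gene 1.0 ST array. The authors normalised the arrays with frozen robust multiarray analysis, per the labels and design text, and deposited log2 levels, which are the values used here; software versions are not given in the sources used here. Of 35556 probe sets with values, 21789 carried a single gene symbol in the platform annotation, 1621 carried several and 12146 carried none here. The probe set with the highest mean stood for each of 19938 genes (999 had several), 21698 probe sets being matched to RefSeq by Entrez ID.

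Differences are asymptomatic Tg26 minus FVB/N. The model used limma 3.58.1 in R 4.3.3 with 6 groups and 6 surrogate variables, found by iterative re-weighting (5 iterations, number from 20 permutations at p 0.1). Batch A alone was fitted with limma and no covariate. Adjusted p-values are Benjamini-Hochberg values over all genes, with a threshold of 0.05. The labels describe separate animals. The fitting steps were run on data simulated from the model itself with independent noise for each array. That run does not test how well the model suits these arrays. The number of arrays limits the precision.

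Named genes are the 15 highest that rose and the 15 that fell, ranked by the smaller of the fitted and batch A differences among genes past the threshold with the same sign in both, leaving out predicted, clone-named, small RNA, pseudogene and receptor segment names, plus up to 4 members of each list by adjusted p. More than 4 members are named for the macrophage, interferon and chaperone lists, among others. These further members, and other genes such as Mir155, fall outside the rule and were chosen with their values seen. The 46 genes examined under the alternatives included the 15 in each direction and the members of the 33 lists past the threshold. The rest, picked with their values seen, were D17H6S56E-5, Cxcr4, Nfkbiz, Chordc1, Ahsa2, Mir23a, Mir27a, Mir24-2 and Klra3. Other genes named, such as Klra8, Mir155 and Dnajb4, were not among the 46. Members, lists and tests were chosen with earlier results of these data known. Alternatives changed the covariates, the arrays in the fit, the normalization, the filter on dim genes, the probe sets and the empirical Bayes settings, left out each mouse, and added the mouse number as a block. In batch A, deviations from the group means of same-numbered asymptomatic and FVB/N spleens correlated at 0.229, 0.107 and 0.127. Spleens with different numbers correlated at -0.196 to 0.086. These values do not establish a pairing, and the labels do not state one. The mouse number, shared by mice of different groups, was used as a block in alternatives only. Neither the model nor the batch A fit held it.

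The disease code of lymphoma mouse 4 in the spleen disagreed with its title and description, and the title was followed. Figures were drawn with matplotlib 3.10.9 in Python 3.11.15.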

Additional observations from a re-analysis of the deposited data

Results flagged for a closer look

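For 46 named genes, the 6 asymptomatic Tg26 spleens were examined for a sample far from the others (gap to the nearest value over the range above 0.625). Chance alone gives such a case in about 1 of 20 genes. Among the 46 genes 2 were found, which is close to that rate. The Jam2 level of asymptomatic mouse 4 was the lowest of its group at 8.193, the next being 8.553, and still lay above the highest FVB/N level of 5.77. The D17H6S56E-5 level of asymptomatic mouse 5 was 6.929, the next lowest being 9.515, and lay close to the FVB/N levels of 6.08 to 6.33.

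For 9 genes lower in asymptomatic Tg26 spleen, the difference between asymptomatic Tg26 and FVB/N mice was itself higher in lymph node than in spleen (limma contrast, adjusted p between 0.041 and 0.0473). These genes were named with their lower spleen values known, and the contrast subtracts those same values. That choice favours a positive node minus spleen value. The node minus spleen values were 2.9592 for Atf3, 2.1539 for Gla, 1.9438 for Tnfaip3, 1.7605 for Gch1, 1.6996 for Klf6, 1.6311 for Maff, 1.47 for Junb, 1.1681 for Cxcr4 and 1.1262 for Nfkbiz. With the mouse number as a block 5 of the 9 passed, and without FVB/N mouse 1 all 9 did, with Atf3 at 3.86. All 9 genes were lower in FVB/N mouse 1 than in FVB/N mice 2 and 3; the part of that mouse in these results was not tested beyond leaving it out.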

How the results depend on the processing

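None of the 46 named genes changed sign under any alternative tried. All 46 had been chosen past the threshold in the model, most of them also for their sign in batch A. The alternatives reuse arrays of that fit, so a constant sign was favoured in advance. The split of the model's calls, 61 higher and 62 lower, did move: it was 91 and 39 with the 15 spleen arrays and surrogate variables, 134 and 49 with the 9 arrays and no covariate, 273 and 77 with the 9 arrays and batch as a term, and 64 and 188 without FVB/N mouse 1. The 123 genes of the model became 24 with batch as a term, 23 with no covariate, 51 with the 15 spleen arrays and batch as a term, 350 with the 9 arrays and batch as a term, 439 in batch A alone, 372 there with the replicate block, 74 without asymptomatic mice 4 and 5, and 14 to 252 when 1 mouse was left out. With the replicate block in the model of all arrays 100 genes passed. The other alternatives gave 86 to 183. The batch A count of 439 became 126 with the lymphoma spleens of that batch in the fit, 372 with the replicate block and 165 to 1956 when 1 mouse was left out. The node minus spleen count of 50 became 0 with batch as a term, with no covariate, after quantile normalization and without asymptomatic mice 4 and 5 (limma, 871, 612, 1846 and 1344 genes at an unadjusted p under 0.05), 2 with the filter on dim genes, 12 with the replicate block, 26 with the trend and robust settings, 81 with mean probe sets, 102 with mouse as a random block, and 0 to 279 when 1 mouse was left out.

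The 7 macrophage genes became 0 with batch as a term or no covariate over 30 arrays (12 and 13 of 21 at an unadjusted limma p under 0.05), 12 with the 15 spleen arrays and surrogate variables, 16 with the 9 arrays with or without batch, 17 in batch A with or without the replicate block, 4 with that block over all arrays, 2 without asymptomatic mice 4 and 5, and 0 to 7 when 1 mouse was left out. The 5 immediate early and stress genes became 2 with batch as a term over 30 arrays or over the 15 spleen arrays, 6 with it over the 9 arrays, 1 with no covariate, 2 without asymptomatic mice 4 and 5, and 1 to 11 when 1 mouse was left out. The causes were not tested. Of the 46 named genes, Jam2, Hsph1 and Ahsa2 passed in all 24 alternatives and Hcrtr2 and Lipo3 in the 23 that kept them, since the filter on dim genes removed both with Klra3, Klrb1b, Clec1b, Il6 and Maff, whereas Per1 passed in 6, Il6 in 3 of 23 and Xcl1 in 2. The replicate block ended 11 of the 46 calls in the model, each with its adjusted p in the report. Within batch A it also ended those of Ifit1, Ifit2, Rtp4, Thy1, Sparc and Dnaja1 (adjusted p between 0.0518 and 0.0947), and no other call of a gene the report names.

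FVB/N mice exist in batch A only, so no fit compares the groups within batch B. The 3 FVB/N spleens disagree with each other on the stress, clock, erythroid and neutrophil genes.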
